A study of Drosophila melanogaster with 6 samples.

Results

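The gene bt (bent, FBgn0005666) encodes Projectin, a giant protein of the insect sarcomere that belongs to the titin family. It was examined here in 3 pupal tissues of Drosophila through the exons that its mRNA used and through splice junctions that the annotation lacks. The members were found by the gene identifier in the exon count tables, and by the annotated bt transcripts named beside each splicing event. This gave 49 exon bins of bt out of 64266 bins in 12392 genes, and 645 unannotated events of bt out of 122483 events. All 49 bins passed the filter on low counts, and 148 of the 645 events had the 50 reads that the test asked for. Bins E002 and E003 were not analysed here.

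Titin-like proteins are long chains of immunoglobulin and fibronectin type III domains with stretches of disordered, elastic sequence, and they carry a kinase domain towards their C-terminus. In indirect flight muscle, which is stretch-activated and stiff, Projectin forms part of the connecting filament that runs from the Z-disc to the thick filament. In the synchronous muscles of the leg and body wall it lies along the thick filament in the A-band instead. Flight muscle is known to hold a smaller Projectin than other muscles, and alternative splicing of the exons for the elastic region near the N-terminus is the known source of size differences. Which domains each exon bin encodes was not looked up here, so bins are named below by their number and position only.

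RNA was taken from indirect flight muscle (IFM), whole leg and brain of w[1118] flies at 72 h after puparium formation (APF), raised at 27 °C, with 2 libraries per tissue. IFM is a dissected fibrillar muscle, whereas the whole leg holds tubular muscle together with epidermis, cuticle and nerve, and the brain is labelled non-muscle. The labels credit mRNA selection of IFM to one sequencing provider and that of leg and brain to another, whereas the study's methods name a single provider. By the labels, provider and tissue cannot be told apart wherever IFM is compared. No source used here gives the number of animals behind a library, and p-values therefore measure only the spread between these 6 libraries.

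Exon bins summed to between 67091219 and 177964590 reads per library, where a read over several bins counts in each. The 3 flight muscle markers fixed for this work (Act88F, fln and TpnC4) summed to 73750 and 102000 CPM in IFM, 2403 and 2380 CPM in leg, and 620 and 264 CPM in brain. The 3 tubular muscle markers were Act79B, TpnC73F and TpnC47D. They summed to 3461 and 2729 CPM in IFM, 23470 and 27270 CPM in leg, and 734 and 807 CPM in brain. Most of the leg sum was Act79B, with 23280 and 27070 CPM in leg and 191 and 171 CPM in brain. TpnC73F and TpnC47D were lower in leg than brain, with log2 fold changes of -1.44 and -2.42 (edgeR adjusted p = 0.000573 and 0.00028). All 3 were lower in IFM than in leg. The 4 neuronal markers that were found summed to 584 and 525 CPM in IFM, 544 and 290 CPM in leg, and 5083 and 3582 CPM in brain. Most of the IFM sum was Sh, with 448 and 389 CPM in IFM and 218 and 67.1 CPM in leg. nSyb, brp and Syt1 were each lower in both IFM libraries than in both leg libraries. Of these only nSyb passed the test for IFM over leg (log2 fold change -1.53, edgeR adjusted p = 0.00159). Genes used by all striated muscle summed to 13450 and 11250 CPM in brain, so the brain libraries held muscle transcripts, and no defining marker of muscle was at 0 there. How much of the bt signal in brain came with these transcripts was not tested.

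bt was read most deeply in flight muscle and least in brain. The bt bins held 992843 and 2469840 reads in IFM, 790923 and 523278 in leg, and 213753 and 89755 in brain. After TMM scaling of the summed bins this was 15040 and 23180 CPM in IFM, 10990 and 6930 CPM in leg, and 1897 and 785 CPM in brain. No library of one tissue overlapped with another tissue, but the leg libraries and the brain libraries each spread widely. The log2 fold change was 3.83 for IFM over brain (SE 0.59, edgeR quasi-likelihood adjusted p = 0.00175) and 2.74 for leg over brain (SE 0.56, edgeR adjusted p = 0.00875). Without brain library a these were 4.61 and 3.51. Of all 12345 genes tested, 66.6% were called between IFM and brain and 43.5% between leg and brain. IFM and leg are neighbours that did not separate under the same test, with a log2 fold change of 1.09 (SE 0.53, edgeR adjusted p = 0.121, 57.4% of genes called), although the Wald test of DESeq2 gave an adjusted p of 0.0226 for this comparison. In bulk tissue, fewer muscle cells and less RNA per cell cannot be told apart.

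Other giant proteins of the sarcomere were measured in the same libraries. Sallimus (sls), the titin-like spring at the Z-disc, had a log2 fold change of 0.91 for IFM over leg (SE 0.46, edgeR adjusted p = 0.139) and 4.04 for IFM over brain (SE 0.52, edgeR adjusted p = 0.000836). Unc-89, the obscurin of the M-line, was higher in IFM than in leg with a log2 fold change of 2.25 (SE 0.48, edgeR adjusted p = 0.00887). Strn-Mlck, a titin-family kinase gene, was higher in IFM than in leg with a log2 fold change of 4.37 (SE 0.62, edgeR adjusted p = 0.0018). Across the 4 lists of sarcomere genes without bt, 10 of 27 genes found were higher in IFM than in leg and 9 were lower, with a median log2 fold change of 0.61 beside 0.08 over all genes. Over all genes tested, 29.8% were called higher and 27.6% lower in that comparison. Between IFM and brain, 22 of the 27 were higher and 4 lower, beside 33.1% and 33.5% of all genes. Between leg and brain 25 were higher and 2 lower, beside 20.9% and 22.6%. The gene whose profile lay nearest to that of bt among 6091 genes was sls, at a Euclidean distance of 0.433 between centred log2(CPM + 1) values over the 6 libraries, followed by kay (0.81), CG1674 (0.837), Nlg1 (0.878) and cmb (0.885).

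bt lies on chromosome 4 of the BDGP6 build, from 724400 to 776474 on the plus strand, and the annotation (Ensembl release 115) places no other gene than transposable element insertions within it. Its 5 annotated isoforms (bt-RC, bt-RF, bt-RH, bt-RI and bt-RJ) share the start codon at 725717 and the stop codon at 775547. The 49 bins cover 27976 bases and are between 22 and 9471 bases long. 33 bins belong to all 5 isoforms, and 29 have a length that is a multiple of 3. Bin E042 (758220 to 767690) is by far the longest and alone held between 35.3 and 37.3% of the bt bin reads in each library.

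Reads were not spread evenly over the mRNA. Bins from E042 to the 3′ end make up 13983 of the 27976 bases, and they held 81.3 and 83.4% of the reads in IFM, 79.7 and 80.0% in leg, and 71.6 and 73.4% in brain. Read density at E049, near the stop codon, was 7.57 and 8.36 times that of E007 and E008 in IFM, 9.32 and 9.52 times in leg, and 5.38 and 5.10 times in brain. The slope towards the 3′ end was thus shallower in both brain libraries than in the 4 others. Densities of very short bins are raised because reads reach over their edges, so where a density is given below as a percent of flanking bins, it serves to compare libraries and not to say how often an exon was included.

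**Figure D1:**
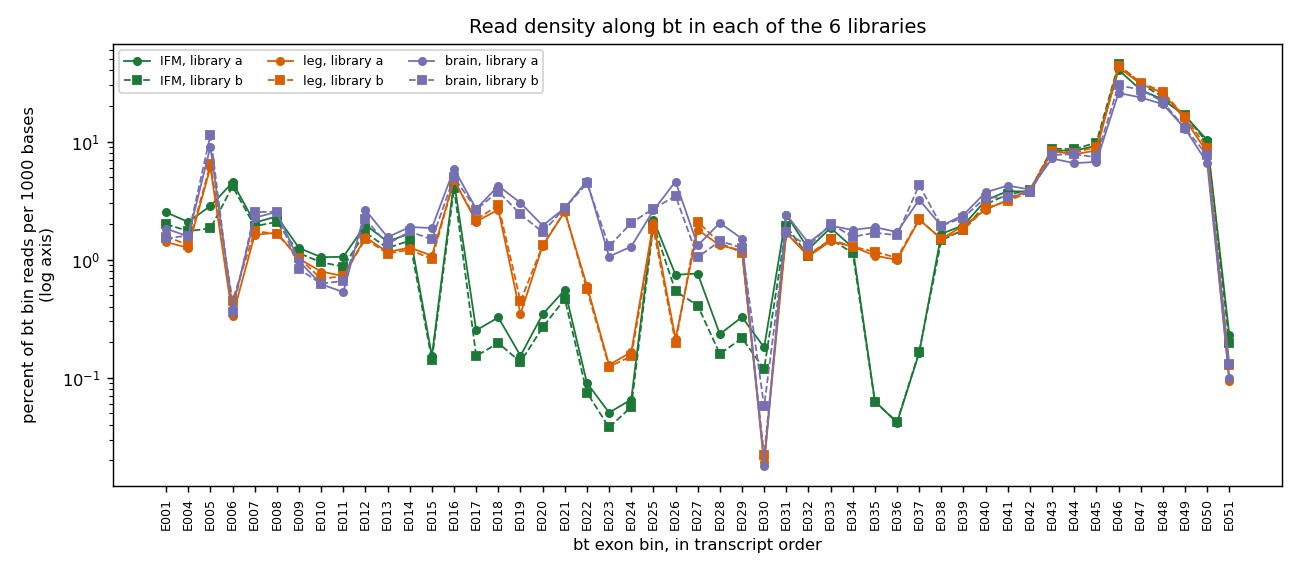
Percent of the bt bin reads per 1000 bases (log axis) in each exon bin from the 5′ to the 3′ end, for each of the 6 libraries. The IFM libraries fall to between 0.03 and 0.07% per 1000 bases in E023, E024, E035 and E036, where both brain libraries stay above 1%.

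Exon use was then tested as the reads of a bin relative to all other bins of bt in the same library. Between IFM and leg, 16 of the 49 bins were used less in IFM and 10 were used more. Of all 56131 bins tested, 10.3% were called lower and 8.64% higher in this comparison. The 16 lower bins all lay past a 2-fold change, which is 32.7% of the bt bins beside 4.61% of all bins, and only 3 of the 10 higher bins did (6.12% beside 3.53%). The 16 lower calls stood without any single library, whereas the 10 higher calls were 3 without IFM library a and 6 without leg library a or leg library b, and diffSpliceDGE called 11 lower bins and 1 higher. Between IFM and brain, 22 bins were used less in IFM and 10 more, against 13.6% and 12.1% of all bins, and 17 of the lower and 2 of the higher bins passed 2-fold (34.7% and 4.08% of the bt bins, beside 6.68% and 4.89% of all bins). The median log2 fold change over all 49 bins was 0.06 for IFM over leg and -0.24 for IFM over brain. With only the 5 bins on each side as the reference, 23 of the 32 calls of IFM over brain were kept with their direction. E012, E038, E043, E049 and E050 were among those that lost it, and E025 and E034 were called higher in IFM instead. The slope of reads along the mRNA differed between IFM and brain, and its part in the smaller changes was not tested further.

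The same 16 bins were lower in IFM than in leg and lower in IFM than in brain, 2 comparisons that share the IFM libraries. They are E005, E015, E017 to E024, E027 to E029 and E035 to E037. All but E005 lie between 733217 and 753160, a stretch of 23 bins in the first part of the coding sequence. Together the 16 bins hold 13.9% of the bt bases, and their reads made up 0.678 and 0.526% of the bt reads in IFM, 4.50 and 4.63% in leg, and 7.68 and 7.35% in brain. In each of the 16 bins both IFM libraries lay below both leg libraries and below both brain libraries. The bins were picked by their calls in these same libraries, so this adds no support. 9 of the 16 belong to all 5 annotated isoforms, and no annotated bt transcript leaves those 9 out. With only the 5 bins on each side as the reference, 13 of the 16 kept their call in IFM over leg and 15 in IFM over brain. E019, E023 and E024 lost it in IFM over leg, with log2 fold changes of -0.64, -0.20 and 0.005 (edgeR adjusted p = 0.0583, 0.6 and 0.993), and E027 in IFM over brain (-0.04, edgeR adjusted p = 0.945). Several neighbours of these bins are low in IFM themselves.

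**Figure D2:**
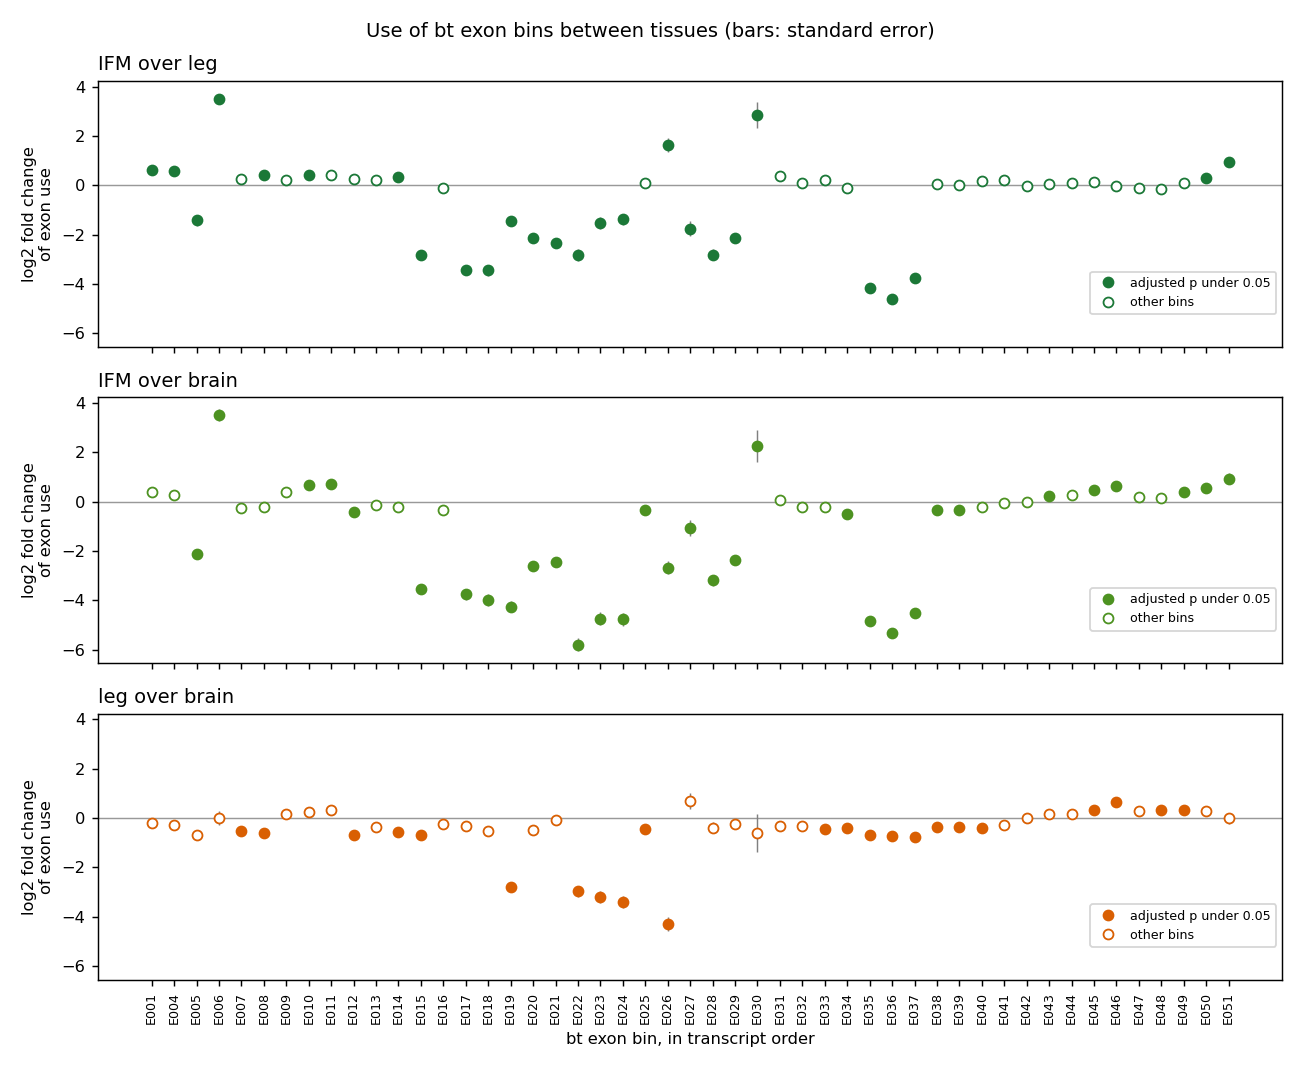
Log2 fold change of exon use for each of the 49 bt bins in transcript order, in IFM over leg, IFM over brain and leg over brain, with standard errors as bars and filled points for an edgeR adjusted p under 0.05. The 15 low bins between E015 and E037 stand out in both comparisons with IFM, and in leg over brain only E019, E022 to E024 and E026 lie below -2.

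The largest losses of use in IFM over leg were in 3 adjoining exons, E035 (750570 to 751469), E036 (752177 to 752940) and E037 (753025 to 753160). E036 held 316 and 800 reads in IFM, 6001 and 4139 in leg, and 2798 and 1104 in brain, although IFM had the most bt reads of all. Its share of the bt reads was 0.0318 and 0.0324% in IFM, 0.759 and 0.791% in leg, and 1.31 and 1.23% in brain, with no overlap between tissues. The log2 fold change of use was -4.60 for IFM over leg (SE 0.10, edgeR adjusted p = 1.01e-08) and -5.32 for IFM over brain (SE 0.10, edgeR adjusted p = 2.97e-09). E035 had -4.18 for IFM over leg and -4.85 for IFM over brain, and E037 had -3.74 and -4.50 in the same 2 comparisons.

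E035 to E037 together hold 1800 bases, or 600 codons, and all 5 annotated isoforms contain them. Their joint read density was 4.22 and 4.75% of that of the flanking bins E034 and E038 in IFM, against 80.8 and 85.7% in leg and 103 and 106% in brain. E034 and E038 themselves did not pass the test for IFM over leg, with log2 fold changes of -0.10 and 0.06, and with the 5 bins on each side as the reference E034 passed it as higher in IFM (0.22, edgeR adjusted p = 0.044). Leg also used the block less than brain, with log2 fold changes of -0.68 for E035, -0.72 for E036 and -0.76 for E037 and edgeR adjusted p-values between 0.000474 and 0.00712. E034 and E038 were lower in leg than in brain as well, with log2 fold changes of -0.39 and -0.38 (edgeR adjusted p = 0.0161 and 0.0139). With only the 5 bins on each side as the reference, all 3 calls for IFM over leg were kept, and E035 and E036 lost theirs for leg over brain (-0.28 and -0.33, edgeR adjusted p = 0.111 and 0.0603).

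Upstream of this block lies a run of small exons, E015 to E030, most of which were also low in IFM. E015 (733217 to 733564, 116 codons, absent from bt-RH and bt-RJ) held 0.0532 and 0.0491% of the bt reads in IFM, 0.376 and 0.351% in leg, and 0.645 and 0.516% in brain. The log2 fold change was -2.84 for IFM over leg (SE 0.13, edgeR adjusted p = 1.22e-06) and -3.52 for IFM over brain (SE 0.14, edgeR adjusted p = 2.31e-07). E017 and E018 together stood at 14.4 and 9.78% of the density of E014 and E025 in IFM, 137 and 159% in leg, and 142 and 136% in brain. These 2 exons are in all 5 isoforms, and each had a log2 fold change near -3.4 for IFM over leg (-3.44 for E017 and -3.45 for E018).

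E020 and E021, 145 codons in all 5 isoforms, were at 21.08 and 18.97% of the flanking density in IFM, 100 and 111% in leg, and 96.6 and 90.7% in brain. Their log2 fold changes for IFM over leg were -2.12 and -2.34 (edgeR adjusted p = 8.6e-06 and 2.21e-06). E028 and E029, whose 522 bases add up to whole codons although neither length does alone, were at 13.1 and 10.3% in IFM, 65.8 and 68.7% in leg, and 66.0 and 59.5% in brain of the density of E025 and E031. By density against the flanking bins these exons were alike in one respect: leg and brain lay close to each other and IFM lay below both. With the 5 bins on each side as the reference, E020 and E021 kept their calls with smaller changes. These were -0.86 and -1.32 for IFM over leg, and -0.48 and -0.42 for IFM over brain. That reference also called E021 higher in leg than in brain (0.90, edgeR adjusted p = 0.000447).

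4 exons inside the same run were not lower in IFM than in leg, of which E026 and E030 were higher there and are described below, and E016 and E025 passed the test against the whole gene in neither direction. E016 (733920 to 733964, 45 bases) held 0.208 and 0.182% of the bt reads in IFM, 0.212 and 0.211% in leg, and 0.264 and 0.225% in brain, and was called in no comparison against the whole gene (log2 fold change for IFM over leg -0.12, SE 0.11, edgeR adjusted p = 0.519). With the local reference it was called higher in IFM than in brain (0.60, edgeR adjusted p = 0.00269). E025 (737736 to 737909, 174 bases) held 0.379 and 0.343% in IFM, 0.358 and 0.318% in leg, and 0.454 and 0.469% in brain. Its log2 fold change was 0.09 for IFM over leg (SE 0.10, edgeR adjusted p = 0.563), and it was lower in IFM than in brain against the whole gene (-0.36, edgeR adjusted p = 0.0296) but higher with the 5 bins on each side as the reference (2.51, edgeR adjusted p = 1.75e-06). That local reference, most of whose bins were themselves low in IFM, also called it higher in IFM than in leg (2.16, edgeR adjusted p = 6.21e-06).

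Several exons separated all 3 tissues or set brain apart. E022 to E024 together stood at 3.21 and 2.97% of the density of E014 and E025 in IFM, 11.3 and 11.6% in leg, and 66.4 and 88.4% in brain. E019 followed the same order, with 7.99 and 7.94% in IFM, 20.8 and 29.2% in leg, and 135 and 109% in brain. With the local reference E019, E023 and E024 lost their call for IFM over leg, as given above, and E022 kept it (-1.43, edgeR adjusted p = 0.00328). E022 alone held 35 and 72 reads in IFM, 185 and 114 in leg, and 386 and 155 in brain, and its log2 fold change of -5.80 for IFM over brain (SE 0.27, edgeR adjusted p = 6.47e-07) was the lowest of any bt bin in any comparison.

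E026 (738953 to 738988, 12 codons, absent from bt-RH) had its own order. It held 0.0268 and 0.0195% of the bt reads in IFM, 0.00771 and 0.00707% in leg, and 0.165 and 0.125% in brain, so that leg was the lowest and brain the highest. The log2 fold change was 1.63 for IFM over leg (SE 0.27, edgeR adjusted p = 0.00308), -2.67 for IFM over brain (SE 0.26, edgeR adjusted p = 6.54e-05) and -4.30 for leg over brain (SE 0.29, edgeR adjusted p = 1.28e-05). E027, the next bin and only 33 bases long, held 0.0252 and 0.0135% in IFM, 0.0592 and 0.069% in leg, and 0.0435 and 0.0345% in brain. It was lower in IFM than in leg (log2 fold change -1.75, edgeR adjusted p = 0.00296) and did not pass the test for leg over brain (0.68, SE 0.32, edgeR adjusted p = 0.281), which it passed with the local reference (1.41, edgeR adjusted p = 0.0113).

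In leg over brain, 19 bins were lower and 4 were higher, where 4.69% of all bins were called lower and 4.19% higher. Past 2-fold were 5 lower bins and 0 higher ones, namely E019, E022, E023, E024 and E026, with log2 fold changes of -2.80, -2.97, -3.22, -3.39 and -4.30. This is 10.2% of the bt bins beside 3.5% of all bins lower past 2-fold, where 2.62% were higher, and these 5 bins kept their call with the local reference. The other 14 lower bins had smaller changes, and the 4 higher bins (E045, E046, E048 and E049) lie at the 3′ end, with log2 fold changes between 0.31 and 0.65. This count depended on single libraries and on the reference, since 14 bins were called without leg library b, 13 without brain library a and 14 with the 5 bins on each side as the reference. The slope of reads along the mRNA differed between leg and brain, and its part in the small changes was not tested beyond that local reference.

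**Figure D3:**
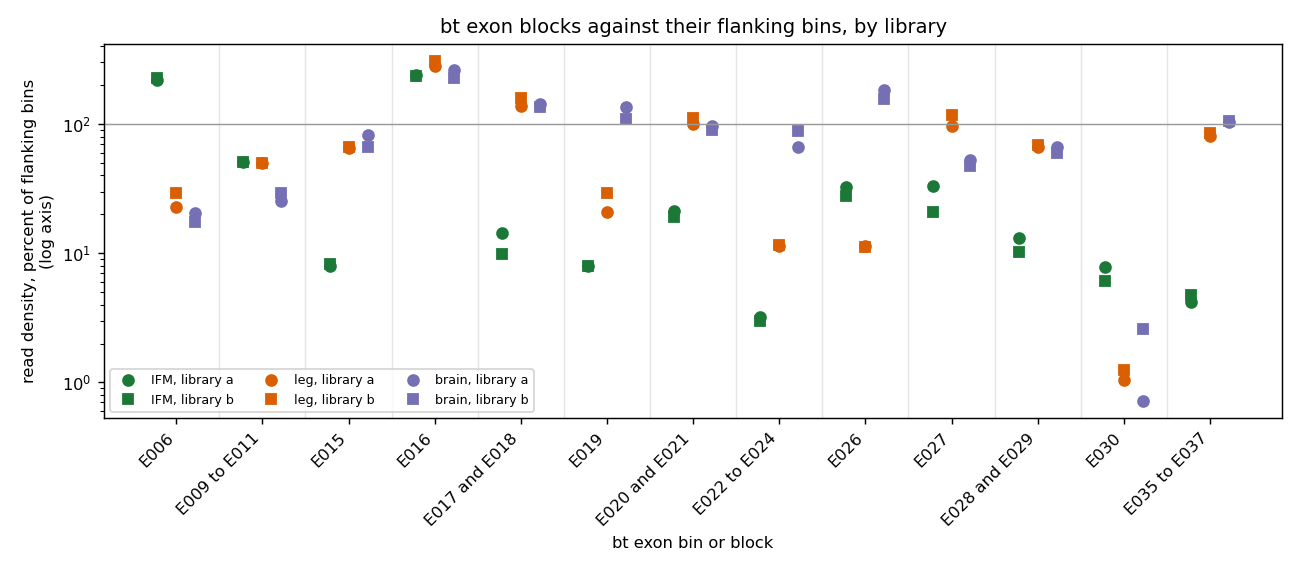
Read density of bt exon bins or blocks as a percent of the density of their flanking bins (log axis), with both libraries of each tissue shown as separate points. For E035 to E037 the IFM points lie at 4.22 and 4.75%, while leg lies at 80.8 and 85.7% and brain at 103 and 106%, and E006 is the block with the widest gap in the opposite direction.

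At the 5′ end of the coding sequence 2 short exons of different isoforms replaced each other between tissues. E005 (726662 to 726683, 22 bases) belongs to bt-RC, bt-RF and bt-RJ, and E006 (726932 to 726962, 31 bases) to bt-RH and bt-RI. E006 took 69.1 and 76.2% of the reads over both in IFM, 7.14 and 9.02% in leg, and 5.78 and 4.27% in brain. Both IFM libraries thus used mainly E006, and the 4 other libraries used mainly E005.

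E006 held 1386 and 3190 reads in IFM, 81 and 73 in leg, and 26 and 10 in brain. Its log2 fold change of use was 3.50 for IFM over leg (SE 0.18, edgeR adjusted p = 2.4e-06) and 3.51 for IFM over brain (SE 0.23, edgeR adjusted p = 5.56e-06), the highest of any bt bin in both comparisons. E005 fell in IFM, with log2 fold changes of -1.42 for IFM over leg (edgeR adjusted p = 0.00142) and -2.12 for IFM over brain (edgeR adjusted p = 0.000101). Leg over brain did not pass the test in E006 (log2 fold change 0.01, SE 0.28). The lengths of E005 and E006 differ by 9 bases, a multiple of 3.

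E030 (743525 to 743602, 78 bases) is found only in bt-RH. It had 140 and 229 reads in IFM, 12 and 9 in leg, and 3 and 4 in brain. The log2 fold change was 2.84 for IFM over leg (SE 0.52, edgeR adjusted p = 0.00497) and 2.25 for IFM over brain (SE 0.64, edgeR adjusted p = 0.0292). Its density was 7.88 and 6.10% of that of E025 and E031 in IFM, against 1.04 and 1.25% in leg and 0.717 and 2.60% in brain. Without IFM library a the adjusted p for IFM over leg rose just past the threshold, to 0.05003.

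The cassette E009 to E011 (645 bases, 215 codons) is present in bt-RF and bt-RI. Its density was 51.2 and 50.5% of that of E008 and E012 in IFM, 50.1 and 49.6% in leg, and 25.4 and 29.1% in brain, so that both brain libraries lay below the 4 others on this measure. Against the whole gene, E010 was higher in IFM than in leg with a log2 fold change of 0.43 (SE 0.12, edgeR adjusted p = 0.0293) and higher in IFM than in brain with 0.68 (SE 0.13, edgeR adjusted p = 0.00385). E011 was higher in IFM than in brain (0.72, edgeR adjusted p = 0.00455) and missed the threshold for IFM over leg (0.41, edgeR adjusted p = 0.0501). None of the 3 bins passed for leg over brain against the whole gene, where E008 and E012 beside them were lower in leg (-0.60 and -0.68). With the local reference E010 lost its call for IFM over leg (0.29, edgeR adjusted p = 0.102) and all 3 bins were called higher in leg than in brain, with log2 fold changes of 0.59 for E009, 0.74 for E010 and 0.78 for E011 (edgeR adjusted p = 0.0146, 0.00488 and 0.00846).

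At the 3′ end, changes were small. E046 (57 bases, absent from bt-RH) held 2.31 and 2.58% of the bt reads in IFM, 2.42 and 2.51% in leg, and 1.47 and 1.70% in brain, with log2 fold changes of 0.64 for IFM over brain (edgeR adjusted p = 0.000616) and 0.65 for leg over brain (edgeR adjusted p = 0.00104). E051 (776082 to 776474, the far end of the 3′ untranslated region, annotated in bt-RI only) held 0.0907 and 0.0778% in IFM, 0.0369 and 0.0505% in leg, and 0.0393 and 0.0513% in brain. Its use was higher in IFM than in leg with a log2 fold change of 0.95 (SE 0.20, edgeR adjusted p = 0.00879), which was 0.84 with an adjusted p of 0.0675 without IFM library a. E001 and E004 at the 5′ end, E008 and E014 were also higher in IFM than in leg, by log2 fold changes of 0.60, 0.57, 0.40 and 0.33. With the local reference E001, E004 and E008 lost the call (0.17, 0.21 and 0.03), as E001 did without IFM library a (0.43, edgeR adjusted p = 0.126). E008 and E014 lost theirs without IFM library a (0.32 and 0.23), without leg library a (0.42 and 0.36) and without leg library b (0.38 and 0.30), and E001 without leg library a (0.52).

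Splice junctions that the annotation lacks gave a second view of the same mRNA. The program fortuna assigns each read to transcript fragments built from annotated splice sites and counts reads over introns that no annotated transcript holds, called events here. Of the 645 bt events, 598 skipped 1 or more exons, 30 used another acceptor, 10 another donor, 4 another pair of both, and 3 lay inside an exon. In 579 events (89.8%) the donor and the acceptor were both annotated, and these took 98721 of the 99542 bt event reads.

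Event reads were most frequent in IFM also relative to bt itself. They numbered 27584 and 58504 in IFM, 6733 and 4390 in leg, and 1664 and 667 in brain, which is 24.9 per 1000 bt bin reads in IFM, 8.46 in leg and 7.68 in brain. This was not particular to bt. All events of the series held 1798695 and 3507067 reads in IFM, 569194 and 554656 in leg, and 794567 and 608528 in brain. All bins held 96110615 and 177964590 reads in IFM, 75165123 and 79553199 in leg, and 71774519 and 67091219 in brain. Per bin read, events were thus most frequent in IFM over the whole series as well. With both replicates added, 84 events had at least 150 reads in IFM, 21 in leg and 0 in brain, and 16 of them were shared by IFM and leg (16 of the 84 and 16 of the 21). With thresholds scaled to the bt bin reads of each tissue, at 307, 116 and 26.9 reads, the counts were 54 in IFM, 26 in leg and 26 in brain. Brain, the tissue with the fewest bt reads, thus had as many events past its scaled threshold as leg.

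The event with the most reads joined E016 to E022 (733964 to 736149) and left out E017 to E021. It had 2133 and 4962 reads in IFM, 200 and 87 in leg, and 43 and 28 in brain. The event test scaled counts by each library's event reads over all genes (TMM) and by the mean bt CPM of the tissue. The words relative to bt expression stand for both scalings here and below, and such fold changes differ from those per bt bin read. Relative to bt expression its log2 fold change was 2.00 for IFM over leg (SE 0.45, edgeR adjusted p = 0.0136) and 1.77 for IFM over brain (SE 0.46, edgeR adjusted p = 0.0213). The 5 exons that it skips were all among the bins with lower use in IFM. So was E022, the exon that it joins, with log2 fold changes of -2.83 for IFM over leg and -5.80 for IFM over brain. As a bin E022 held 107 reads in IFM, where 7674 event reads entered it.

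The event from E034 to E038 (749019 to 753338) leaves out exactly the block E035 to E037. It had 1432 and 3269 reads in IFM, 550 and 379 in leg, and 36 and 10 in brain. It took 5.19 and 5.59% of the bt event reads in IFM, 8.17 and 8.63% in leg, and 2.16 and 1.50% in brain. Set against the read density of the flanking exons E034 and E038, there were 101 event reads per read per base in IFM, 50.8 in leg and 8.30 in brain. The test relative to bt expression called it higher in IFM than in brain (log2 fold change 1.83, edgeR adjusted p = 0.0277) but not in IFM against leg (-0.29, edgeR adjusted p = 0.669). That test also scales by the event reads of all genes in a library, so it does not measure the ratio to the flanking exons.

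Other frequent events made long jumps. The event from E022 to E050 (736187 to 774915) had 1766 and 4230 reads in IFM, 124 and 80 in leg, and 36 and 8 in brain, and leaves out 27 bins and 22510 bases. As a bin E022 held only 107 reads in IFM, far fewer than this event. The event from E005 to E047 had 1326 and 3485 reads in IFM, 320 and 179 in leg, and 84 and 21 in brain, and relative to bt expression it was called in no comparison. It was the most read bt event in brain. In IFM the bin E005 held 1620 reads, fewer than this event.

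**Figure D4:**
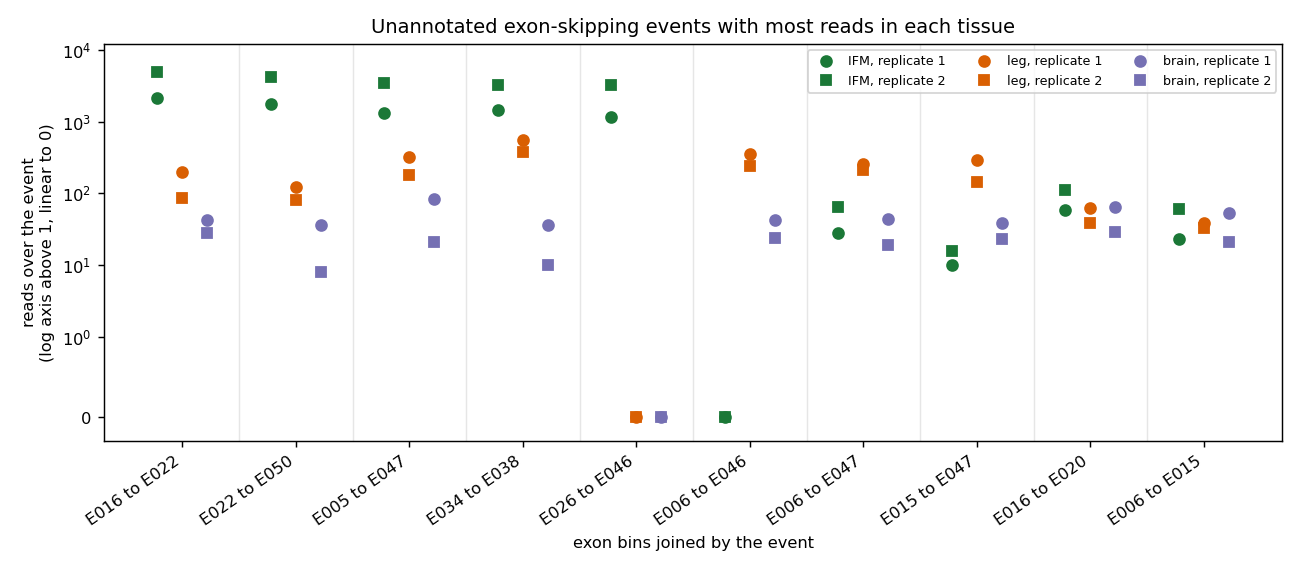
Reads over bt exon-skipping events in each library (log axis above 1, linear to 0), for the 5 events with most reads in each tissue. The event from E026 to E046 has 1156 and 3273 reads in IFM and 0 in the 4 other libraries, and the event from E006 to E046 has 0 in IFM, 359 and 243 in leg, and 43 and 24 in brain.

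A pair of events had fortuna counts of 0 in opposite tissues. The event from E026 to E046 (738988 to 772403) had 1156 and 3273 reads in IFM and 0 in every leg and brain library. Scaled to the bt bin reads of each tissue, this was at least 560-fold higher in IFM than in leg and at least 129-fold higher than in brain, taking 3 reads over a tissue as the limit that a count of 0 allows. The event from E006 to E046 (726962 to 772403) had 0 reads in both IFM libraries, against 359 and 243 in leg and 43 and 24 in brain. It was at least 529-fold lower in IFM than in leg and at least 255-fold lower in IFM than in brain on the same scale. Both passed the test in both comparisons with IFM (edgeR adjusted p = 0.000264 and 0.000779 for the first, 5.21e-05 and 0.000107 for the second). E006 itself, as a bin, was used more in IFM, while the event leaving it for E046 was not seen there. Both events leave short bins that held fewer reads than the event. As bins, E026 held 747 reads in IFM, and E006 held 154 in leg and 36 in brain. Which of the counts follows the mRNA there was not tested.

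Relative to bt expression and to the event reads of each library, 35 of the 148 tested bt events were higher in IFM than in leg. Lower were 24, and over all 14864 events tested the shares were 13.6% higher and 9.99% lower. For IFM over brain 24 were higher and 21 lower, against 11.6% and 13.1% of all events. For leg over brain 1 event was higher and 1 lower, with 0.895% and 1.70% of all events called. Leaving out any 1 of the 4 libraries compared lowered the 59 calls of IFM over leg to between 33 and 36. For IFM over brain the 45 calls fell to 28 without IFM replicate 2, to 25 without brain replicate 1 and to 30 without brain replicate 2.

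Of the 35 events higher in IFM than in leg, 9 left E022, which as a bin held 107 reads in IFM. Only 1 of the 24 lower events left it. E022 is the donor of 29 of all 645 bt events, and its share of the tested events was not counted. These 9 include the events from E022 to E049 (1211 and 2903 reads in IFM, 35 and 11 in leg, 7 and 2 in brain), from E022 to E043 (738 and 1685 in IFM, 15 and 18 in leg, 1 and 0 in brain) and from E022 to E045 (400 and 946 in IFM, 27 and 24 in leg, 1 and 1 in brain). Their log2 fold changes for IFM over leg were 3.85, 3.55 and 2.08 (edgeR adjusted p = 0.00252, 0.00162 and 0.0131). Of the 24 events lower in IFM than in leg, 9 entered E046 or E047, as did 5 of the 35 higher ones. Of all 645 bt events, 31 enter E046 and 40 enter E047. The event from E015 to E047 had 10 and 16 reads in IFM, 294 and 143 in leg, and 39 and 23 in brain, and a log2 fold change of -6.61 for IFM over leg (edgeR adjusted p = 0.00013, and 0.17 where only read 2 was counted). The event from E006 to E047 had 28 and 64 reads in IFM, 260 and 209 in leg, and 44 and 19 in brain, with a log2 fold change of -4.97 for IFM over leg (edgeR adjusted p = 0.000324), which turned to 0.38 where only read 2 was counted.

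Leg and brain differed in 2 tested events. The event from E014 to E021 (732233 to 735905) had 63 and 103 reads in IFM, 188 and 106 in leg, and 2 and 0 in brain, with a log2 fold change of 4.94 for leg over brain (edgeR adjusted p = 0.018). The event from the end of E018 to an acceptor at 734717, inside E019, had 6 and 7 reads in IFM, 5 and 8 in leg, and 23 and 11 in brain, with -3.59 for leg over brain (edgeR adjusted p = 0.0435). The first lost its call without leg replicate 1 and without either brain replicate, with adjusted p-values of 0.104, 0.0738 and 0.0686. The second lost its call without IFM replicate 1 or 2 and without leg replicate 1 or 2, with adjusted p-values of 0.0633, 0.0699, 0.148 and 0.0966, and had too few reads to be tested without either brain replicate. The events from E016 to E020 and from E006 to E015 were among the 5 most read in brain, although both had few reads everywhere. The first had 59 and 110 reads in IFM, 62 and 39 in leg, and 64 and 29 in brain, and the second had 23 and 61 in IFM, 39 and 33 in leg, and 53 and 21 in brain. Relative to bt expression they were lower in IFM than in brain by log2 fold changes of -3.95 and -4.67 (edgeR adjusted p = 0.00143 and 0.00114).

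Event reads and bin reads did not match at the shortest exons. The events leaving E022 summed to 28549 reads in IFM, which is 33.2% of all bt event reads there, and those entering it to 7674 reads. The 39 bases of E022 held 107 reads in IFM as a bin. In leg 1449 event reads left E022 and the bin held 299, and in brain 339 event reads left it and the bin held 541. By its bin E022 was thus used least in IFM, whereas the events at its ends were most frequent there.

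In IFM, 7 bins had more event reads at one end than reads counted in the bin (E005, E006, E016, E018, E022, E026 and E027), and all 7 are 60 bases or shorter, out of 8 bins of that length in bt. None of the 41 longer bins did in IFM. In leg this held for E006, E022 and E030, and in brain for E006 and E030, of which E030 is 78 bases long. In E006, 6359 event reads left a bin with 4576 reads in IFM, 1815 left a bin with 154 reads in leg, and 359 left a bin with 36 reads in brain. The event counts come from pseudoalignment and the bin counts from genome alignment, and which of them follows the mRNA at these exons was not tested.

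**Figure D5:**
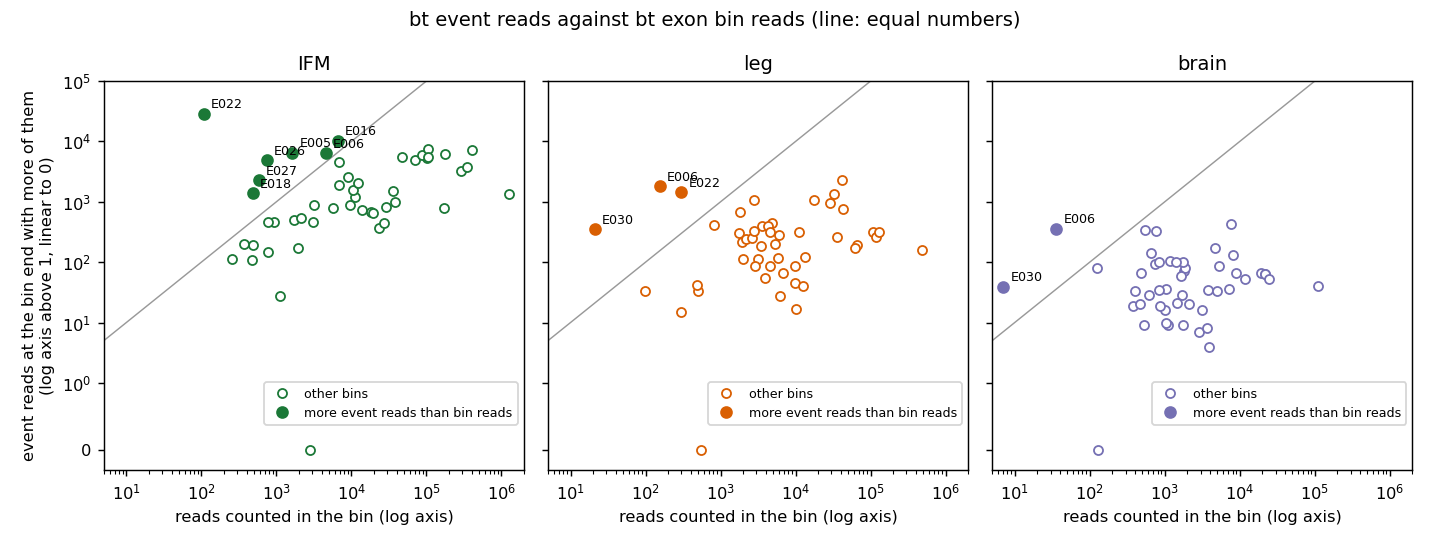
Event reads at the end of each bt bin that has more of them, against the reads counted in that bin, in IFM, leg and brain (both replicates added, log axes, the vertical one linear below 1). Filled and named bins lie above the line of equal numbers, with E022 farthest above it in IFM at 28549 event reads and 107 bin reads.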

How the data were processed

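bt exon use was examined in 2 libraries each of IFM, whole leg and brain. The submitters' processing notes name the BDGP6 build, STAR 2.7.3a, SAMtools 1.1 and Subread 2.0.0 with its counter featureCounts. The deposited exon tables, made with DEXSeq, hold raw read counts per exon bin and library. How those bins were counted, and with which DEXSeq version, is not given in the sources used here. The deposited fortuna tables hold raw read counts per unannotated event for each library and read end, and both ends were added. Fold changes and p-values of the authors' own comparisons, in the gene tables and the exon tables, were not used.

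Counts were tested with edgeR 4.0.16 in R 4.3.3 (quasi-likelihood F test, two-sided, all 6 libraries, tissue as the only factor, Benjamini-Hochberg adjustment at 0.05 over every feature tested in the whole series). Exon bins summed per gene were scaled by TMM. A bin was compared with the log of the reads over all other bins of its gene as offset, among bins with at least 50 reads and at least 10 reads over the other bins in each library. Events with at least 50 reads had TMM scaling over the event reads of each library and the log of the mean gene CPM of the tissue plus 0.1 as offset. The tissue mean was used because the leg and brain exon columns carry no replicate number, and their libraries are called a and b. No value had a test outside these fits, since an exact permutation test of 2 libraries against 2 cannot go below p = 0.33. A total of 234 broken lines of the exon tables were rejoined and 42 repeated lines were dropped.

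Alternatives were DESeq2 1.42.0 (size factors and Wald test), edgeR's diffSpliceDGE, the 5 bins on each side as reference, a minimum of 10 reads, single read ends, no locus offset, the 4 libraries of a comparison, and each library left out. The fits were tested on simulated counts for IFM over leg, with 50 planted changes of each size. Recovered at 2-fold were 22 bins, 1 event and 13 genes, and at 4-fold 43 bins, 11 events and 42 genes. Among unchanged features, 36 of 53456 bins, 2 of 13351 events and 6 of 12060 genes were called. A change that was not called is therefore not shown to be absent. Bins were named by a fixed rule (up to 8 called bins per direction with the smallest adjusted p in IFM over leg and 4 in the other comparisons, and the bins joined by the 5 most read events of a tissue), and other bins were described by block. Events were named as the 5 most read of a tissue and the 3 called per direction with the smallest adjusted p. The gene bt, the lists of genes and these rules were chosen with earlier results of these data known. Python 3.11.15 with pandas 2.3.3, numpy 2.4.6 and matplotlib 3.10.9 did the rest.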

Additional observations from a re-analysis of the deposited data

How the results depend on the processing

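Under every alternative bt kept its direction and its side of the threshold at the gene level, except IFM over leg with DESeq2's Wald test (log2 fold change 1.19), and values without single libraries were between 0.75 and 1.50 for IFM over leg, 3.33 and 4.61 for IFM over brain, and 2.24 and 3.51 for leg over brain. For exon use, diffSpliceDGE called 12 bins in IFM over leg, 17 in IFM over brain and 5 in leg over brain, where the main test called 26, 32 and 23, and the 5 bins on each side as reference called 14 in leg over brain. That local reference kept 19, 23 and 9 of the 26, 32 and 23 calls with their direction and turned the sign of 1, 3 and 4 of them. Leaving out 1 library gave between 19 and 27, 24 and 32, and 13 and 26 calls. E049 turned to -0.0382 in IFM over brain and to -0.00166 in leg over brain with that local reference. Events relative to bt expression gave 91, 125 and 74 calls in the 3 comparisons without the locus offset and 36, 25 and 0 with read 2 only, against 59, 45 and 2. Without single libraries the counts were between 33 and 64, 25 and 50, and 0 and 2. For leg over brain DESeq2's Wald test called 7 and a minimum of 10 reads 6. With read 2 only, the event from E006 to E047 turned to 0.38 in IFM over leg and 0.47 in IFM over brain. Events reaching 750 reads numbered 27 in IFM and 1 in leg. At 150 reads, read 2 alone gave 37 in IFM and 5 in leg, read 1 alone gave 9 in leg, and single libraries gave between 44 and 63 in IFM and between 5 and 11 in leg. Scaled thresholds gave 54 in IFM and 26 in brain. The cause of these shifts was not tested.

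Of 352 values for named bins under alternatives, 315 kept their call, 35 lost it and 2 reversed, and for named events 175, 16 and 2. Replicate numbers did not pair the tissues (correlation of event deviations 0.0124 for IFM and leg, 0.0115 for IFM and brain, 0.0236 for leg and brain), and a replicate block gave 58, 46 and 3 event calls, which held 53 of the 59, 43 of the 45 and 1 of the 2. The event from E018 to the acceptor inside E019 was the one lost in leg over brain, with an adjusted p of 0.0565. No paired analysis was possible because the leg and brain exon columns carry no replicate number, for genes and bins. Depth limits brain most, where bt had 89755 bin reads in one library and E030 3 and 4 reads.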

Other observations

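A few bt events were almost confined to 1 of the IFM libraries. Over the 84 events with at least 150 reads in IFM, replicate 1 held a median of 30.5% of the IFM reads of an event, close to its 32.0% of all bt event reads. The 3 events farthest from this were E014 to E020 (732233 to 735515), with 236 reads in IFM replicate 1 and 2 in replicate 2, E025 to E031 (737909 to 745166), with 1014 and 9, and E016 to E025 (733964 to 737736), with 919 and 15. Replicate 1 held 99.2, 99.1 and 98.4% of their reads. The last skips E017 to E024 and the second skips E026 to E030, all bins inside the run of small exons described above. In leg the event from E016 to E025 had 76 and 53 reads and in brain 30 and 24 reads. These events were picked for the imbalance after their values were seen.

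Regulators of muscle splicing fixed as a list were measured in the same libraries. bru1, the regulator of flight muscle splicing, had 1872 and 2028 CPM in IFM, 31.1 and 19.1 CPM in leg, and 52.3 and 34.1 CPM in brain, and was higher in IFM than in leg with a log2 fold change of 6.28 (SE 0.39, edgeR adjusted p = 0.000108). how had 140 and 157 CPM in IFM, 431 and 285 CPM in leg, and 73.1 and 49.9 CPM in brain. Of the 5 regulators found, 2 were higher and 2 lower in IFM than in leg, beside 29.8% and 27.6% of all genes. Their part in bt splicing was not tested.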
